A study of Mus musculus with 18 samples.

Results

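The transcriptional response to p53 restoration was measured in small cell lung cancer (SCLC) cells that carried a control guide, sgBgal, against β-Gal. The comparison used 6 of the 18 RNA samples of the study, and 11953 of the 25239 genes in the deposited table. These were the genes with at least 1 TPM (transcripts per 1000000, a level scaled for transcript length and for the total of the library) in at least 3 of the 6 samples. At the edge of this filter, the third-highest value was 0.998 TPM for Serinc4, which was left out, and 1.00 TPM for Macc1, which was kept.

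The 3 mouse cell lines, 4711-1, 4711-18 and 4716-11, were each established from an individual lung tumor of mice with floxed Rb1 and Rbl2 alleles (Rb1 flox/flox and Rbl2 flox/flox), an XTR gene trap in Trp53 (Trp53 XTR/XTR) and a Rosa26 FlpO-ER allele, on a mixed background. Tumors had been started with an adenovirus that expresses Cre from the CMV promoter, which is designed to recombine the floxed Rb1 and Rbl2 alleles and to invert the gene trap in Trp53, in both groups alike. Which exons remain cannot be read from gene-level TPM. The study classes these lines as Type D, its term for lines that lysed within days of p53 reactivation. It detected no markers of apoptosis in Type D lines. Each line carried a lentiviral CRISPR vector. In the Control group the cells received vehicle (ethanol) and in the Restored group 500 nM 4-hydroxytamoxifen (4-OHT), which activates the FlpO-ER recombinase and removes the trap. RNA was taken after 72 h, and the share of cells dying by then cannot be read from these samples. Each group held 1 sample of each line, and the line was the replicate (n = 3). The names of 4711-1 and 4711-18 share their first part, and whether both tumors came from 1 mouse is not given in the sources used here. No sample received 4-OHT without a restorable Trp53 allele, so p53 and 4-OHT cannot be told apart in these 6 samples. In bulk RNA, fewer cells of one kind and less RNA per cell cannot be told apart either.

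p53 is a transcription factor that is held at a low level in unstressed cells by MDM2, an E3 ubiquitin ligase and itself a p53 target. When it accumulates it activates genes that halt the cell cycle, start apoptosis and change metabolism. Much of the repression that follows p53 activation is understood to be indirect: p21, the product of Cdkn1a, inhibits cyclin-dependent kinases, and the RB family proteins and the DREAM complex then silence genes with E2F and CHR promoter elements.

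Absolute depth is unknown because TPM keep no read totals. Set against the shallowest library, the others were at most 1.55 times as deep, estimated from low values, and 11500 to 12012 genes reached 1 TPM. The 100 most abundant genes held 26.7 to 30.1% of all TPM in Control and 21.3 to 24.5% in Restored samples. The Restored samples thus spread their TPM over more genes, and over the 11953 genes the log2 fold change had a median of 0.19. Rescaling the samples by median-of-ratios factors moved that median to 0.00, so values on the TPM scale are read here against 0.19. Calca, a neuroendocrine peptide gene, was listed at 0 in all 6 samples, and Chga, Neurod1 and Pou2f3 stayed under 0.16 TPM. Syp (4.55 to 5.69 TPM), Ncam1 (8.64 to 17.3 TPM) and Uchl1 (1.35 to 2.81 TPM) were detected, and Yap1, a marker of a non-neuroendocrine SCLC state, was at 75.6 to 124.7 TPM. Of the neuroendocrine markers of the labelled tumor type, Calca, Chga and Neurod1 were thus at or near 0. Of 12 markers of leukocytes, endothelium, fibroblasts and normal lung epithelium, 9 stayed under 1 TPM in every sample, and the 12 summed to between 3.66 and 10.1 TPM.

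Trp53 itself, the gene under control of the trap, was measured at 7.42 TPM in 4711-1, 8.41 in 4711-18 and 7.45 in 4716-11 before restoration. After 4-OHT the lines had 222.8, 206.3 and 217.7 TPM. All 3 Restored samples stood far above all 3 Control samples, and the lines differed little from each other within either state. The log2 fold change, computed on log2(TPM + 1) as are all fold changes here, was 4.63 (SE 0.13, limma adjusted p = 0.000234). Rb1, one of the floxed genes, rose from 4.37, 7.52 and 3.49 TPM to 17.1, 28.2 and 14.7 TPM (log2 fold change 1.78, adjusted p = 0.0011). By immunoblot the study found no RB expression in its tumor-derived lines, and whether these Rb1 transcripts encode RB was not tested. Rbl2, which encodes p130, was at 2.64, 3.35 and 2.45 TPM in Control and 4.43, 5.73 and 3.89 TPM in Restored samples, a log2 difference of 0.57 that did not reach the fold minimum of 1.

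Of the 11953 genes, 1376 (11.5%) passed both limits, an adjusted p (Benjamini-Hochberg) below 0.05 together with a log2 fold change of 1 or more in size, and are termed called. The rises outnumbered the falls, with 963 genes called up (8.06%) and 413 called down (3.46%). Counts of called genes in each list and Module below stand against these shares. All 1376 moved in the same direction in 3 of 3 lines. The TPM of the 2 groups did not overlap for 837 of the genes called up and 333 of those called down, against 32.1% of all genes tested. At the adjusted p alone 3297 genes were higher and 1217 lower. Large changes were more often rises: 59 genes were called up by a log2 fold change of 3 or more and 11 called down by as much. Of the genes called up, 127 had a mean below 1 TPM in Control samples, and of those called down, 42 had a mean below 1 TPM in Restored samples. Such genes passed the filter through the group in which they were high. After median-of-ratios rescaling, 662 genes called up and 586 genes called down were counted, so the share of rises among the calls depends on the scaling. Without the pairing by cell line, 591 and 232 genes were called. In the plot of fold change against level, the called genes lie across the whole range of levels.

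**Figure D1:**
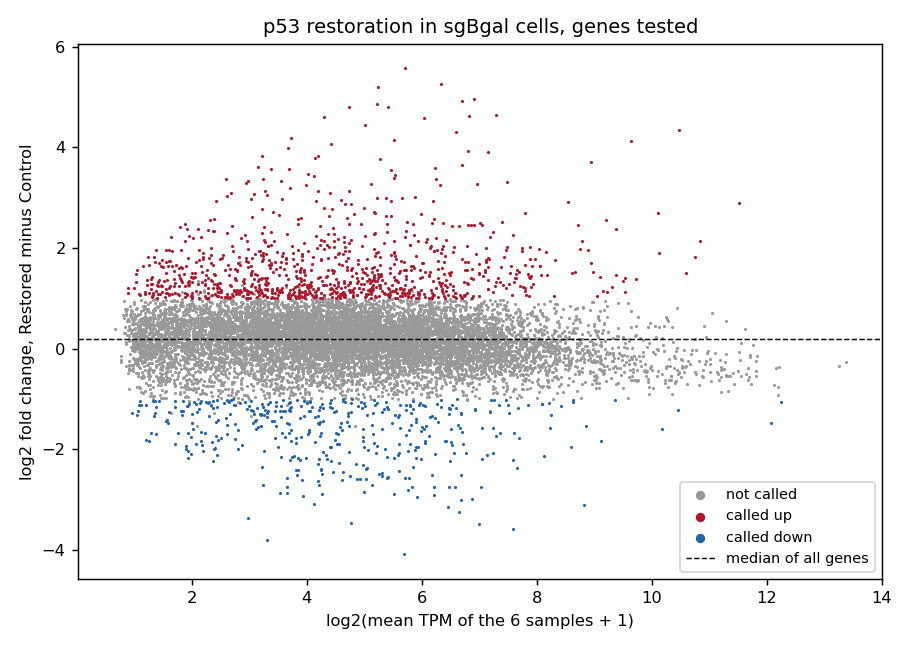
Each point is one of 11953 genes, with log2(mean TPM of the 6 samples + 1) on the x axis and the log2 fold change, Restored minus Control, on the y axis. The 963 genes called up are red, the 413 called down blue, and the dashed line is the median of all genes at 0.19.

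The 12 largest rises held Trp53 and 11 other genes. 1700007K13Rik, a gene without an established function, led them with 0.646, 1.496 and 1.30 TPM in Control and 73.6, 124.3 and 107.8 TPM in Restored samples (log2 fold change 5.57, SE 0.12, adjusted p = 0.000222). Atg9b, which encodes a membrane protein of autophagosome formation, rose from 5.19, 2.21 and 1.74 to 238.8, 134.1 and 93.9 TPM (log2 fold change 5.26). Sytl1, a Rab effector of vesicle transport, rose from 0.912, 0.941 and 1.06 to 61.7, 67.2 and 88.1 TPM (log2 fold change 5.20). For these 3 genes every Restored value was above every Control value. Ptp4a3 (a tyrosine phosphatase, log2 fold change 4.96), Inka2 (4.85), the membrane transporter gene Slc4a11 (4.81), the adenylate kinase gene Ak1 (4.64), the T cell costimulatory ligand gene Cd80 (4.60) and the extracellular sulfatase gene Sulf2 (4.58) followed. The carboxylesterase gene Ces2e was the least even of the 12. It reached 70.2 TPM in Restored 4711-1, 21.4 in 4711-18 and 517 in 4716-11, from 1.12, 2.84 and 2.61 TPM, for a log2 fold change of 4.93 with an SE of 0.81. Ms4a10 also differed between lines, with 22.7, 20.2 and 109 TPM after restoration (log2 fold change 4.80).

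Among the 12 largest falls, 5 were chemokine or acute phase genes and 3 (Plk1, Ccnb2 and Cdca3) belong to mitosis. Ccl20, a chemokine that attracts CCR6+ lymphocytes and dendritic cells, was at 133, 74.5 and 81.0 TPM in Control and at 3.38, 6.44 and 4.17 TPM in Restored samples (log2 fold change -4.09, SE 0.30, adjusted p = 0.00153). Saa3, an acute phase protein, had a log2 fold change of -3.79, and the neutrophil chemokine genes Cxcl5 and Cxcl3 of -3.59 and -3.48. Cxcl5 fell in each line from very unequal levels. It was at 885, 181.2 and 32.8 TPM before and 30.7, 15.1 and 5.15 TPM after restoration, so that Control 4716-11 lay close to Restored 4711-1, and the gene was not called without the pairing by line (adjusted p = 0.109). Vsig1 (log2 fold change -3.47), Sprr2b (-3.36), the monocyte chemokine gene Ccl2 (-3.24), Plk1 (-3.14), Lgals2 (-3.12), Sult1c2 (-3.09), Ccnb2 (-3.01) and Cdca3 (-2.98) completed the list. Cxcl3 and Sult1c2 were not called without the pairing either (adjusted p = 0.0588 and 0.0549).

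**Figure D2:**
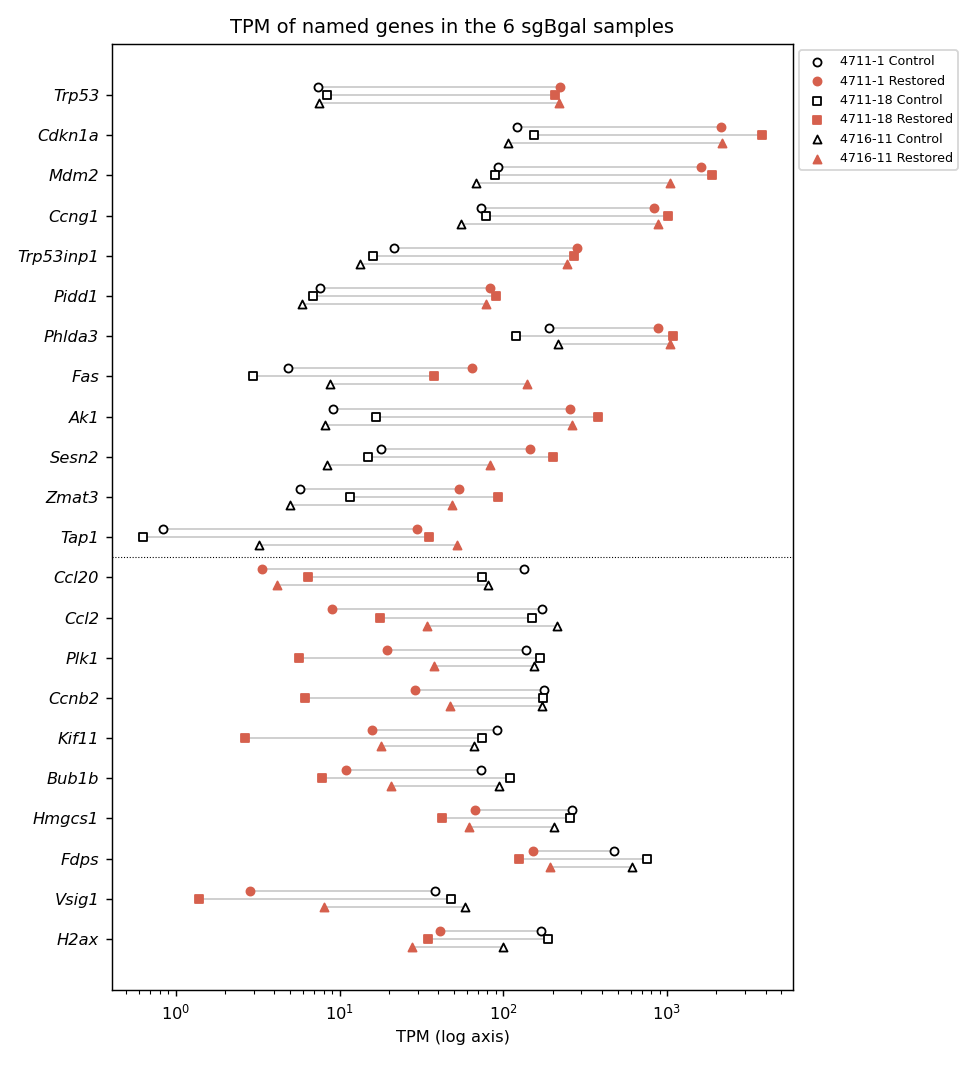
TPM on a log axis for 22 named genes, with open symbols for Control, filled symbols for Restored and 1 symbol shape and grey line for each of the 3 cell lines. Genes above the dotted line were called up and those below it called down, and for each of them all 3 Restored values lie on one side of all 3 Control values.

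Of 11 genes of the negative feedback of p53, 6 were called up, 5 were not called and none was called down, with a median log2 fold change of 1.12. Mdm2 was at 93.3, 88.9 and 68.6 TPM in Control and at 1604, 1884 and 1047 TPM in Restored samples (log2 fold change 4.13, SE 0.14, adjusted p = 0.000423). Ccng1, which encodes cyclin G1, rose from 73.5, 78.1 and 55.0 to 838.5, 1010 and 878.9 TPM (log2 fold change 3.71). Neither gene's groups overlapped. Zfp385a (2.50), Mdm4 (1.88), the phosphatase gene Ppm1d (1.39) and the ubiquitin ligase gene Siah1a (1.11) rose less, while Cop1, Usp7 and Rfwd3 had log2 fold changes of 0.01, 0.03 and 0.09. Siah1a missed the fold minimum after rescaling, at 0.91.

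Cell-cycle brakes were mixed. Of 23 tested, 8 were called up (34.8%) and 1 down (4.35%), against 8.06% and 3.46% of all genes tested. Without the pairing 5 were called up and none down. Cdkn1a, encoding p21, was at 121.8, 153.9 and 107.5 TPM before and 2125, 3806 and 2158 TPM after restoration (log2 fold change 4.35, SE 0.14, adjusted p = 0.000414). It was highest in Restored 4711-18. Zmat3, an RNA-binding protein gene (2.99), Plk2 (2.38), Pml (1.61), Btg2 (1.46) and Sfn, which encodes 14-3-3σ (1.26), also rose. Btg2 values overlapped between the groups, and Sfn had a log2 fold change of 0.86 when 4711-18 was left out. Neither was called without the pairing (limma adjusted p = 0.173 and 0.063). Cdkn2d, the p19 INK4d inhibitor of CDK4 and CDK6, fell by 1.14 on the log2 scale. Cdkn2a was abundant in every sample, at 1240 to 1425 TPM in Control and 786.6 to 1136 TPM in Restored cells, with a log2 fold change of -0.50 (adjusted p = 0.035, under the fold minimum). Gadd45a, a DNA damage gene often used as a p53 target, was at 62.1 to 74.3 TPM in Control and 50.2 to 102.6 TPM in Restored samples and was not called (log2 fold change 0.15).

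The promoter of Cdkn1a was the only one among the genes called up that held a pair of p53 half-sites in the RefSeq promoter windows, which run from 250 bases before to 50 bases after each annotated start (build GRCm38.p6). Such a pair, with up to 13 bases between the half-sites and on either strand, was found in 4 of the 9465 tested genes that have a window and in 24 of all 32851 windows. These windows do not cover the introns and distal regions where p53 often binds. The stretch is shown because Cdkn1a rose most among the brakes. It is at chr17:29090892-29090951, plus strand, before the more upstream of the annotated Cdkn1a starts. Capitals mark the pair matched by the search with the bases between, from 73 to 42 bases before that start. Each half-site was searched as RRRCWWGYYY (R is A or G, W is A or T, Y is C or T). The lower-case bases that follow directly, tgacatgttc, miss this pattern only at their first base, so the search did not pair them. Which of these bases p53 binds was not tested.
Cdkn1a: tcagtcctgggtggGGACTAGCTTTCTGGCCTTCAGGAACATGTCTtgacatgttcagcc

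Genes of intrinsic apoptosis rose in part. Of 31 tested, 14 were called up (45.2%) and 2 down (6.45%), against 8.06% and 3.46% of all genes tested. The median log2 fold change was 0.77. Trp53inp1, a regulator of p53 and of autophagy, rose from 21.6, 16.0 and 13.3 to 281, 270 and 246 TPM (log2 fold change 3.92), and Pidd1, a death domain scaffold protein gene, from 7.59, 6.92 and 5.87 to 83.6, 89.7 and 78.7 TPM (3.45). Both were nearly equal in the 3 lines after restoration. Phlda3 (2.55), Perp (2.45) and the BH3-only gene Pmaip1, which encodes NOXA (2.45), came next. Bbc3, which encodes the BH3-only protein PUMA, went from 14.9, 20.9 and 16.6 to 73.8, 109 and 72.8 TPM (2.21), the apoptosome gene Apaf1 had a log2 fold change of 2.17 and the pore-forming Bax of 1.34. The 2 called down were Bmf (-1.91) and Bok (-1.02), which encode a BH3-only protein and a BAX relative, and Bok was not called without the pairing. None of 8 prosurvival genes was called at these limits by limma, with or without the pairing. The most abundant of them, Mcl1, was at 189, 193 and 102 TPM in Control and 223, 242 and 136 TPM in Restored samples, and Bcl2l1 had a log2 difference of 0.77 (limma adjusted p = 0.0232).

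Death receptor genes included 5 called up of 14 (35.7%, against 8.06% of all genes tested). Fas rose from 4.83, 2.97 and 8.71 to 64.1, 37.9 and 139 TPM (log2 fold change 3.54, SE 0.15), and Eda2r, a receptor for ectodysplasin A2, from 0.859, 0.361 and 0.3002 to 29.4, 14.3 and 10.9 TPM (3.58). The TRAIL receptor gene Tnfrsf10b (2.20) and the decoy receptor gene Tnfrsf23 (2.18) rose as well. Cflar, an inhibitor of caspase-8, was called at 1.01, and its call was lost when 4711-1 or 4711-18 was left out (0.95 and 0.85) or without the pairing. Fadd, Casp8 and Tnfrsf21 had log2 fold changes of 0.03, 0.08 and 0.05.

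Of 14 genes of necroptosis, pyroptosis, ferroptosis and the permeability pore, 2 were called up: the deubiquitinase gene Cyld (1.5) and the necroptosis effector gene Mlkl (1.05). This is 14.3% of the list, against 8.06% of all genes tested, and 1 gene was called up without the pairing, and 1 up and 1 down after rescaling. Mlkl was at 55.8, 58.0 and 93.2 TPM before and 116, 170 and 140 TPM after restoration, and it was under the fold minimum when 4711-18 was left out (0.81) and after rescaling (0.84), and not called without the pairing (adjusted p = 0.0615). Ripk3, Gpx4 and Ppif, the gene of mitochondrial cyclophilin D, had log2 fold changes of -0.03, -0.11 and -0.00. None of the 16 cyclophilin genes tested was called, and at the adjusted p alone 4 were higher and 2 lower. After rescaling 2 were called down, and 1 was called down with a pseudocount of 0.1, without 4711-1 or without 4711-18. Ppia was at 2704, 2575 and 2849 TPM in Control and at 2060, 1551 and 2730 TPM in Restored samples, with overlapping groups (log2 fold change -0.39, adjusted p = 0.107). The lowest were Ppih (-0.99) and Ppic (-0.98), both just short of the fold minimum.

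Of 30 metabolic and redox targets of p53, 17 were called up, none was called down and 13 were not called, with a median log2 fold change of 1.52. A log2 fold change below 0 was found for 8 of them, and 7 were lower in 3 of 3 lines. Ak1, an adenylate kinase, rose from 9.19, 16.6 and 8.14 to 254.3, 378 and 264.3 TPM. Ddit4l, an inhibitor of mTORC1, had a log2 fold change of 4.44, the phospholipid transfer protein gene Pltp of 3.36, the urate transporter gene Slc2a9 of 3.25 and Cpt1c of 2.87. Cpt1c values overlapped between the groups, and it was not called without the pairing (adjusted p = 0.131). Sesn2, a leucine sensor that restrains mTORC1, rose from 18.0, 15 and 8.43 to 145, 202 and 82.9 TPM (3.25). Some genes counted among p53 targets elsewhere were not called. Sesn1 was at 6.21 to 8.52 TPM in Control and 4.90 to 8.22 TPM in Restored samples, and Fdxr, Tigar and Gls2 had log2 fold changes of 0.22, 0.27 and -0.92. These were chosen after their values were seen. The related list of 36 autophagy and lysosome genes held 5 called up (13.9%, against 8.06% of all genes tested). They were Atg9b, the cathepsin gene Ctsl (1.70), Atg7 (1.47), Atg14 (1.15) and the transcription factor gene Mitf (1.07). Atg14 had a log2 fold change of 0.95 without 4711-18 and Mitf of 0.99 without 4716-11, and neither was called without the pairing. At the adjusted p alone, 18 of the 36 were higher and none lower, and their median was 0.52.

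Of 29 DNA damage repair genes tested, 5 were called up (17.2%) and 3 down (10.3%), against 8.06% and 3.46% of all genes tested. Ercc5, the XPG endonuclease of nucleotide excision repair, rose from 11.7, 9.39 and 9.42 to 77.0, 100.5 and 87.9 TPM (log2 fold change 3.001), and the translesion polymerase gene Polk from 9.64, 8.72 and 6.62 to 61.2, 81.5 and 42.3 TPM (2.71). Mgmt (2.10), the mismatch repair gene Msh6 (1.503) and Rev1 (1.45) also rose. Mgmt was uneven, at 1.89, 68.3 and 6.62 TPM in Restored 4711-1, 4711-18 and 4716-11, its groups overlapped, and it was not called without the pairing (adjusted p = 0.349). The Fanconi anemia genes Fancd2 (-1.59) and Fanci (-1.11) and the recombination gene Rad54l (-1.29) were called down.

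Genes of mitosis fell together. Of 64 tested, 54 were called down and none up, and 61 were lower in 3 of 3 lines, with a median log2 fold change of -2.05 (-2.23 after rescaling). Their summed share of all TPM was 0.567, 0.643 and 0.521% in Control and 0.181, 0.108 and 0.217% in Restored 4711-1, 4711-18 and 4716-11. Plk1, a kinase of mitotic entry and spindle assembly, was at 137.4, 167.5 and 155 TPM before and 19.6, 5.69 and 37.6 TPM after restoration (log2 fold change -3.14, SE 0.49, adjusted p = 0.00879). Ccnb2, encoding cyclin B2, was almost the same in the 3 Control samples, at 177.6, 173.9 and 172.5 TPM, and dropped to 29.0, 6.18 and 47.0 TPM (-3.01, SE 0.51). The A-type cyclin gene Ccna2 (-2.96), the spindle motor gene Kif11 (-2.88), the spindle checkpoint gene Bub1b (-2.81) and Ccnb1 (-2.74) fell to a like degree. Foxm1 (-1.99) and Mybl2 (-1.87), transcription factors of the G2 and M program, fell as well. Only Pttg1 (0.44) and Ckap2 (0.58) were above 0, and neither was called. With no filter on low values the test covered 19622 genes and called 21 of the 64, with the same fold changes.

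Genes of DNA replication gave another picture. Of 43 tested, 1 was called down (2.33%, against 3.46% of all genes tested), the initiation factor gene Mcm10 (-1.10), and none up. The number called down was 3 after rescaling or without 4716-11, and 0 without 4711-18. The median log2 fold change was -0.07, below that of all genes, and it was -0.28 after rescaling and 0.14 when 4711-18 was left out. Mcm2, a subunit of the replicative helicase, was at 242.6, 235.7 and 243.4 TPM in Control and 298.7, 244.1 and 301.5 TPM in Restored samples. Pcna, the sliding clamp gene, was at 1137, 1300 and 2235 TPM before and 1449, 1127 and 3027 TPM after restoration, with overlapping groups (log2 fold change 0.19). Cdc6 had a log2 fold change of -0.15. At the adjusted p alone, 2 of the 43 were higher and 5 lower. In the RB and E2F network of 26 genes, Rb1 and Ccne1 (1.11) were called up and E2f2 (-1.02) down, the same share as over all genes tested (11.5%). Neither Ccne1 nor E2f2 was called without the pairing (adjusted p = 0.173 and 0.0588). The Ccne1 call was lost when either 4711-1 or 4716-11 was left out, and that of E2f2 when 4711-18 was left out (-0.77), where 4 genes of the list were called up and none down.

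**Figure D3:**
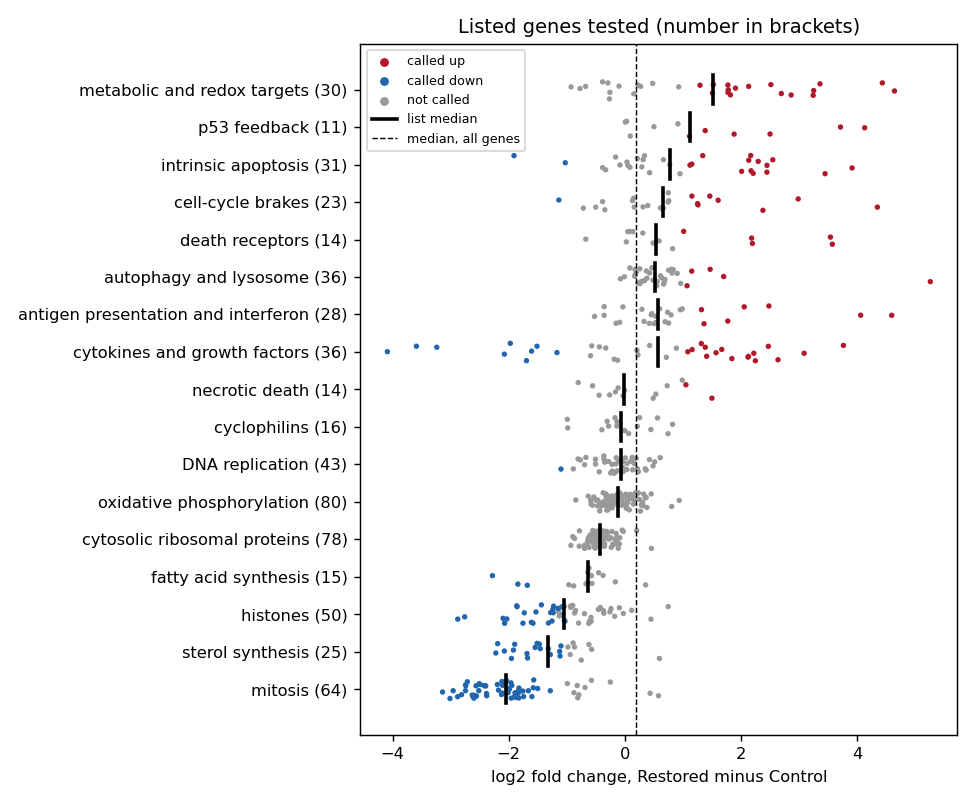
Log2 fold change, Restored minus Control, of each tested gene in 17 lists (points, red called up, blue called down, grey not called), with the number tested in brackets, black bars for list medians and a dashed line for the median of all genes, 0.19. The 64 mitosis genes center on -2.05 and the 43 DNA replication genes on -0.07.

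The promoters of these groups differed in their short elements. The CHR element, searched as TTTGAA or TTCGAA on both strands, is bound by the DREAM and MuvB complexes at genes of G2 and mitosis. It was found in 39 of 56 mitosis genes with a RefSeq window (69.6%), in 7 of 34 DNA replication genes (20.6%) and in 16.2% of the 9465 tested genes with a window. Among genes called down 39.3% held it, among genes called up 13.4%, and among all 32851 windows 19.2%. The E2F element, searched as TTTCCCGC or TTTGGCGC, had the opposite order, with 32.4% of DNA replication genes, 8.9% of mitosis genes and 3.7% of tested genes. CCAAT, which NF-Y binds, was in 75.0% of mitosis genes, 64.7% of DNA replication genes and 43.4% of tested genes. When only the 250 bases before the start were searched, CHR was found in 28.7% of genes called down and 39.1% of mitosis genes called down, instead of 39.3% and 71.7%, so many of the matches lay within the 50 bases after the annotated start. In the same search E2F was found in 17.6% of DNA replication genes, 7.1% of mitosis genes and 3.1% of tested genes. A gene with several annotated starts had several windows, and a match is a description of the sequence, not a measured site.

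**Figure D4:**
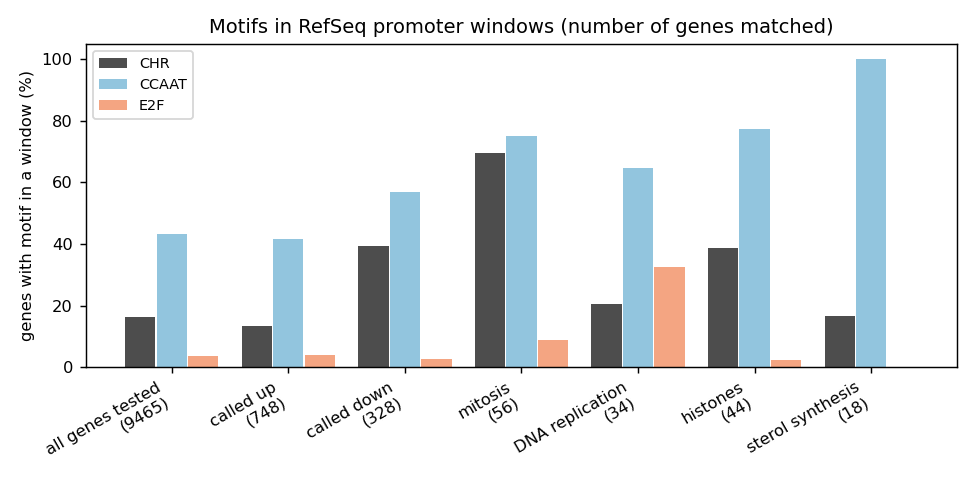
Share of genes (percent, y axis, 1 bar for each motif) with CHR, CCAAT or E2F in a RefSeq promoter window in 7 sets of genes, with the number of genes matched in brackets. CHR reached 69.6% in the mitosis list against 16.2% in all genes tested, and E2F 32.4% in the DNA replication list against 3.7%.

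Of the mitosis genes called down, 18 hold CHR before the start, and 60 bases of promoter are shown for the 11 in which it begins within 30 bases of the start, since the comparison of promoters turns on this element. Capitals mark CHR, which reads TTCAAA where it lies on the strand opposite to the gene, and each stretch is written 5′ to 3′ on the strand of its gene (GRCm38.p6). In 8 of the 11 stretches CCAAT, as ccaat (Cdc20) or its reverse complement attgg, stands upstream of CHR, and in 3 (Prc1, Ncapg and Kif15) it does not.
Kif11: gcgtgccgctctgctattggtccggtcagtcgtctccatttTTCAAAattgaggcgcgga
Kif22: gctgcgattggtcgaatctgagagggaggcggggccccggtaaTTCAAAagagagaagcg
Top2a: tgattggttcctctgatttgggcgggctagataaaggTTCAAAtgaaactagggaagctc
Espl1: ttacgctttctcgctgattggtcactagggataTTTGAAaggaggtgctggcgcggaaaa
Cdc20: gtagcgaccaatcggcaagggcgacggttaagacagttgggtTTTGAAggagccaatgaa
Prc1: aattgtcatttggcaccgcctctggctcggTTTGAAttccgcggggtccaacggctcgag
Ube2c: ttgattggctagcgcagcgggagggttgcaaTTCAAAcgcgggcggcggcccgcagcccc
Ncapg: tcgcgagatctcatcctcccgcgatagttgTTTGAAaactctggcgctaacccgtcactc
Kif15: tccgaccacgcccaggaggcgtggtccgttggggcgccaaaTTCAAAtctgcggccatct
Cenpn: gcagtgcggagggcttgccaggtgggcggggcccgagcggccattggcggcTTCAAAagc
Cdk1: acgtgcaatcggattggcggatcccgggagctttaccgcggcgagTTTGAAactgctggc
They lie at chr19:37376322-37376381 on the plus strand (Kif11), chr7:127042421-127042480 on the minus strand (Kif22), chr11:99024190-99024249 on the minus strand (Top2a), chr15:102296233-102296292 on the plus strand (Espl1), chr4:118437344-118437403 on the minus strand (Cdc20), chr7:80294416-80294475 on the plus strand (Prc1), chr2:164769869-164769928 on the plus strand (Ube2c), chr5:45669865-45669924 on the plus strand (Ncapg), chr9:122951021-122951080 on the plus strand (Kif15), chr8:116921680-116921739 on the plus strand (Cenpn) and chr10:69352913-69352972 on the minus strand (Cdk1). The element began between 9 bases before the start in Cenpn and 30 bases before it in Prc1 and Ncapg. The log2 fold changes of these genes were -2.88 for Kif11, -2.74 for Kif22, -2.51 for Top2a, -2.49 for Espl1, -2.38 for Cdc20, -2.17 for Prc1, -2.12 for Ube2c, -2.10 for Ncapg, -2.04 for Kif15, -1.95 for Cenpn and -1.89 for Cdk1.

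Histone genes fell in part. Of 50 tested, 24 were called down, none up, and the median log2 fold change was -1.04. Without the pairing 10 were called down. H2ax, which encodes the variant phosphorylated at DNA breaks, was at 170.5, 186.6 and 99.3 TPM before and 41.4, 34.7 and 27.8 TPM after restoration (-2.07, SE 0.15). H2ac10 fell from 43.7, 12.2 and 4.41 to 0.814, 0.986 and 1.24 TPM (-2.88), and the linker histone gene H1f10 had a log2 fold change of -1.86. Neither H2ac10 nor H1f10 was called without the pairing (limma adjusted p = 0.0512 and 0.0784). Replication-dependent histone mRNAs lack poly(A) tails and come from near-identical gene copies, so the levels of single copies are uncertain. How the RNA was selected and how shared reads were split were not tested.

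Genes of sterol synthesis fell in large part. Of 25 tested, 17 were called down and none up, 24 were lower in 3 of 3 lines, and the median log2 fold change was -1.32 (-1.52 after rescaling). The genes follow the pathway from its start. Hmgcs1, the synthase that makes HMG-CoA, was at 263.9, 255.4 and 204 TPM before and 67.5, 42.4 and 61.8 TPM after restoration (-2.07, SE 0.19, adjusted p = 0.00248). The decarboxylase gene Mvd had a log2 fold change of -1.92 and the farnesyl diphosphate synthase gene Fdps of -1.95, from 473, 750.3 and 613.4 to 152.6, 125.4 and 193.5 TPM. The later steps, with Sqle (-1.68), Lss (-1.68) and Cyp51 (-2.19), fell as well. So did Insig1 (-2.22), whose product retains the SREBP activation complex in the endoplasmic reticulum. Srebf2, which encodes SREBP2 itself, had a log2 difference of -0.75. The single member above 0 was Ggps1 (0.60), which makes the precursor for protein prenylation. Cyp51 was not called without the pairing (adjusted p = 0.0994). With no filter on low values, 11 of the 25 were called. Of 15 genes of fatty acid synthesis, 3 were called down (20%, against 3.46% of all genes tested). They were the elongase gene Elovl6 (-2.28) and the desaturase genes Scd2 (-1.84) and Scd1 (-1.68), while Fasn had a log2 difference of -0.67. Scd1 values overlapped between the groups, and it was not called without the pairing (adjusted p = 0.1003).

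All 18 sterol genes with a RefSeq window held CCAAT, against 43.4% of tested genes. The sterol element, searched as TCACNCCAC, was found in 1 of them, Hmgcs1, and in 1.4% of tested genes. The Hmgcs1 stretch at chr13:119690188-119690247 (plus strand) is shown with that match in capitals, from 137 to 129 bases before the start.
Hmgcs1: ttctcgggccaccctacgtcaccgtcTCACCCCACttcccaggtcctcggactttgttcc

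Secreted factors moved in both directions. Of 36 tested, 16 were called up (44.4%) and 9 down (25%), against 8.06% and 3.46% of all genes tested. Without the pairing by line these counts were 7 and 5, and Cxcl1, Cxcl2, Cxcl10, Lif and Csf2 were among those not called. The genes called down were mostly chemokines: beside Ccl20, Cxcl5 and Ccl2 they held Cxcl2 (-1.97), Cxcl10 (-1.69), Cxcl1 (-1.605) and Cx3cl1 (-1.17), together with the alarmin gene Il33 (-2.07) and Fgf1 (-1.51). The genes called up held growth factors and other cytokines. Wnt9a rose from 0.298, 0.169 and 0.118 to 6.31, 19.4 and 5.997 TPM (log2 fold change 3.09), Wnt7a had a log2 fold change of 2.64, the IL-6 family cytokine gene Lif of 2.47, and Csf2, which encodes GM-CSF, of 2.25. Gdf15, a stress-induced cytokine, was at 259.3, 1065 and 666.5 TPM before and 1116, 5075 and 2738 TPM after restoration (2.13, SE 0.12). Its groups nearly met, since Control 4711-18 was close to Restored 4711-1, and it was not called without the pairing (adjusted p = 0.105). The membrane metalloproteinase gene Mmp15 (3.77) led the list.

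Antigen presentation and interferon genes held 7 called up of 28 (25%, against 8.06% of all genes tested) and none called down. Tap1, a subunit of the peptide transporter of MHC class I, rose from 0.837, 0.630 and 3.24 to 29.7, 35.2 and 52.4 TPM (log2 fold change 4.06), and Cd80 from 0.441, 0.435 and 0.651 to 28.1, 30.6 and 51.5 TPM. Parp10 (2.48), Trafd1 (2.06), the kinase gene Ikbke (1.77) and Ifi35 (1.36) were also called. B2m (0.53), H2-K1 (-0.09) and Isg15 (0.51) were not. With a pseudocount of 0.1 in place of 1, 11 of the 28 were called up.

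Epithelial genes rose and fell, with 27.3% of 33 tested called up and 12.1% called down, against 8.06% and 3.46% of all genes. Of 33 tested, 9 were called up, among them St14 (log2 fold change 3.604), which encodes the membrane serine protease matriptase, the hemidesmosome integrin gene Itgb4 (2.49), the epidermal factor gene Zfp750 (2.47) and the cornified envelope genes Sprr1a (2.90) and Ivl (2.33). Sprr1a was at 1955, 149.6 and 897.2 TPM in Control and 5275, 5491 and 3809 TPM in Restored samples, and was not called without the pairing (adjusted p = 0.087). The 4 called down were Muc1 (-1.62), Cldn2 (-1.57), Krt20 (-1.19) and Krt8 (-1.07), and none of these was called without the pairing. In the same gene family as Sprr1a but outside this list, Sprr2b (-3.36) and Sprr2a3 (-2.42) were called down. Of 17 gut and gastric endoderm genes, 4 were called down (23.5%, against 3.46% of all genes tested) and none up. Vsig1, an adhesion protein of the stomach, went from 38.2, 47.8 and 58.2 to 2.84, 1.38 and 8.08 TPM (-3.47), the galectin gene Lgals2 from 589.2, 673 and 1141 to 131.3, 39.2 and 130.3 TPM (-3.12), and Tmigd1 and Lgals4 had log2 fold changes of -2.49 and -1.04. Lgals4 was under the fold minimum without 4711-18 (-0.87). Of 16 mesenchymal genes (18.8% called up), Fn1 (1.92), Mmp14 (1.90) and Snai2 (1.07) were called up with the pairing and none of them without it.

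SCLC lineage genes held 3 called up (18.8%) and 1 called down (6.25%) of 16 tested, against 8.06% and 3.46% of all genes tested. Notch3 was at 0.0469, 0.0149 and 0.0326 TPM in Control and 2.52, 3.61 and 1.06 TPM in Restored samples (log2 fold change 1.64), and Notch1 and Hes6 had log2 fold changes of 1.38 and 1.62. Notch1 and Mycl were not called without the pairing (adjusted p = 0.252 and 0.0873). Mycl, the MYC family member often amplified in SCLC, fell from 9.04, 1.72 and 4.93 to 1.31, 0.418 and 0.792 TPM (-1.596), and Myc had a log2 fold change of -0.03. Within the MYC network Mxd1 (1.58) rose and Mxd3 (-1.67) fell. Only 10 of 23 neuroendocrine genes passed the filter, and 1 of them was called up (10%, near the 8.06% of all genes tested). It was Celf5, an RNA-binding protein gene, which rose from 0.684, 1.34 and 0.540 to 11.97, 15.7 and 12.6 TPM (2.97). Syp (-0.01), Ncam1 (0.05) and Uchl1 (-0.05) were not called.

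Genes of translation and energy metabolism were among the most abundant. The 78 cytosolic ribosomal protein genes tested held no call by limma with or without the pairing (3 were called down after rescaling), while 76 had a log2 fold change below 0 and 39 were lower at the adjusted p alone. Their median was -0.43, and -0.63 after rescaling. Together they made up 14.1, 13.2 and 14.9% of all TPM in Control and 11.4, 8.78 and 11.2% in Restored 4711-1, 4711-18 and 4716-11, without overlap. Rps2, which had the highest mean over the Control samples, was at 4702, 6680 and 7128 TPM before and 3139, 2948 and 3505 TPM after restoration (-0.93), and it passed the fold minimum after rescaling (-1.14) and when 4711-1 was left out (-1.10). Of 80 subunits of oxidative phosphorylation none was called, 2 were higher and 6 lower at the adjusted p alone, and the median was -0.11. After rescaling 1 was called down (median -0.32), and without 4711-18 1 was called up (median 0.02). Of 25 glycolysis genes, Aldoc (-1.35) and the lactate transporter gene Slc16a1 (-1.19) were called down (8% of the list, against 3.46% of all genes tested). Slc16a1 missed the fold minimum without 4711-18 and was not called without the pairing (adjusted p = 0.139). At the adjusted p alone 13 of the 25 were lower and 2 higher.

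Stress response genes held 8 called up of 33 (24.2%, against 8.06% of all genes tested) and none down. After rescaling 6 were called up and 1 down. The glutathione synthesis gene Gclc rose from 132, 167 and 91.4 to 317, 481 and 404 TPM (log2 fold change 1.64), and Osgin1 (1.495), Ppp1r15a (1.53) and Dnajb9 (1.28) were called as well. Ppp1r15a was not called without the pairing (limma adjusted p = 0.0778). Fosb was at 149.3, 16.6 and 37.3 TPM before and 177.1, 159.1 and 125.5 TPM after restoration, with overlapping groups and an adjusted p of 0.0499. It was not called without 4711-18, without 4716-11, without the pairing or with all 18 samples in the fit (adjusted p = 0.264). Atf4, Atf3 and Jun had log2 fold changes of 0.18, 0.19 and 0.54 and were not called.

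The study sorted genes into 6 Modules from p53 restoration in these lines without a guide and in lines of another class, so their direction here is no independent evidence. Of 234 Module 1 genes tested, 212 were called up (median log2 fold change 1.82), of 98 Module 5 genes 82 (1.51) and of 69 Module 6 genes 57 (1.37), and none was called down. Without the pairing 54 Module 5 genes were called. Module 5 was led by Slc4a11, Ms4a10, the GTPase-activating protein gene Arap2 (3.09), Mctp2 (3.07), Pinlyp (3.03) and the diacylglycerol kinase gene Dgka (2.99). Module 6 held Eda2r, Pltp, Ptpn14 (2.60), the collagen lysyl hydroxylase gene Plod2 (2.52) and Ccp110 (2.48). Of 56 Module 2 genes 26 were called down (-0.98), of 226 Module 3 genes 147 (-1.31) and of 73 Module 4 genes 41 (-1.10), and none was called up. Module 3 held Plk1, Ccnb2 and Ccna2, Module 2 held Hmgcs1 and Fdps beside Gcat (-2.07), Kif20b (-2.01) and Smpd3 (-1.95), and Module 4 held the chemokines Ccl20, Cxcl5 and Ccl2. Plod2 and Smpd3 were not called without the pairing (limma adjusted p = 0.0927 and 0.0584).

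Between the lines, the medians of the falls spanned a wider range than those of the rises. Genes called up had a median log2 difference of 1.32 in 4711-1, 1.598 in 4711-18 and 1.40 in 4716-11, and genes called down of -1.47, -1.87 and -1.22. For the mitosis genes the order was the same in every called gene. All 54 changed most in 4711-18 and least in 4716-11, with medians over the 64 tested of -1.77, -3.04 and -1.38 in 4711-1, 4711-18 and 4716-11. Other libraries of the same lines, with Ppia guides, gave -1.80, -2.17 and -1.54 with sgPpia#3.2 and -2.27, -2.66 and -1.35 with sgPpia#4.1, again lowest in 4711-18 and least low in 4716-11. The 17 sterol genes called down also changed most in 4711-18 in each case, and the median of the 25 tested was -1.06, -1.65 and -1.13. The feedback genes had medians of 0.92, 1.22 and 1.19. With 1 sample of each line and state, these differences between lines have no replicate within a line and were not tested. Restored 4711-18 also had the lowest share of TPM in the 100 most abundant genes, 21.3%, and a relative depth of 1.03, and their part in the difference was not tested.

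**Figure D5:**
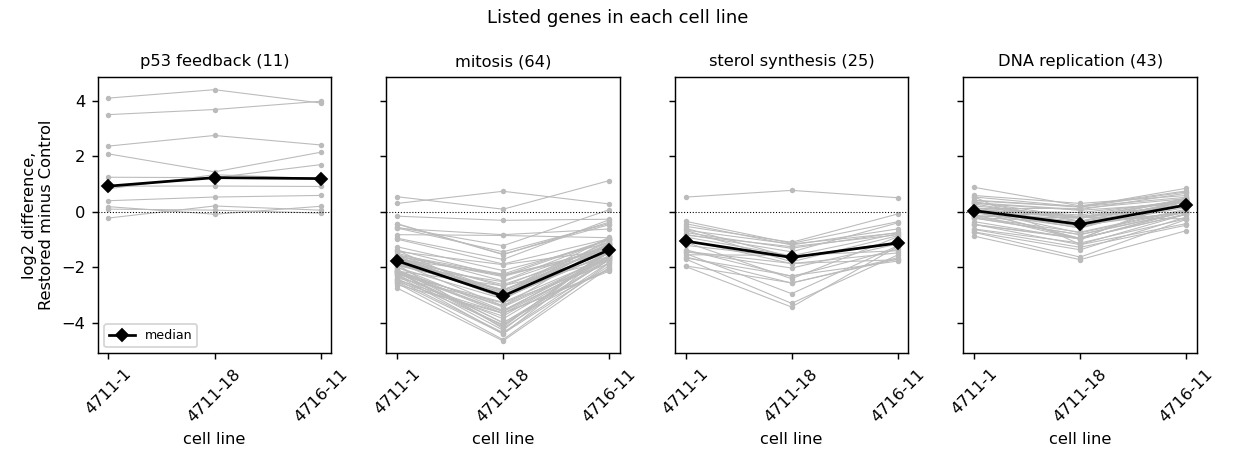
Log2 difference, Restored minus Control, of each gene in each of the 3 cell lines (grey points joined for each gene) for 4 lists, with the list median in black. Mitosis medians are -1.77, -3.04 and -1.38 in 4711-1, 4711-18 and 4716-11, while feedback medians are 0.92, 1.22 and 1.19.

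Some genes moved in opposite directions in the lines. Of the 2913 genes with a mean of at least 5 TPM and opposite signs, the log2 differences of 370 spanned more than 1 between the lines. Guca2a, which encodes the intestinal peptide guanylin, spanned the most. It was at 162 TPM in Control 4711-18 and 1.603 TPM in Restored 4711-18, while in 4711-1 and 4716-11 it stayed under 1.2 TPM in both states. In 4711-18 its log2 difference was -5.97, and it was -5.49 with sgPpia#4.1 and -0.33 with sgPpia#3.2. Tff2, a gastric trefoil peptide gene, was at 129, 0.282 and 28.6 TPM before and 22.0, 0.525 and 18.7 TPM after restoration. Its log2 difference in 4711-1 was -2.50, against -1.13 and -1.45 with the Ppia guides. In 4716-11 the order was the reverse, with -0.59 against -1.99 and -1.40. Acsbg1, an acyl-CoA synthetase gene, was at 21.9 TPM in Control and 114 TPM in Restored 4711-18 (log2 difference 2.33), and at 177 and 176 TPM in 4711-1. The other 5 with the widest span were the small RNA genes Scarna2, Snord70, Mir21a, Mir1191 and Mir7036b, whose annotated length is so short that few reads make several TPM.

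The response was also set against that of the same lines with a Ppia guide. A limma interaction over all 18 samples, with the cell line as a block, found 0 of 11953 genes whose response differed between sgBgal and sgPpia#3.2 at an adjusted p under 0.05, and 0 for sgPpia#4.1. At an unadjusted p under 0.05 there were 165 and 70, and without the block 28 and 16. No gene of the response was thus shown to be particular to the control guide. Of the 1376 genes called in sgBgal cells, 940 were called in the same direction with sgPpia#3.2 and 1053 with sgPpia#4.1. The same sign was found for 1370 and 1372. These fold changes rest on the samples with the Ppia guide. The calls use a variance from all 18 samples, those of sgBgal included, and are not on the same footing as the sgBgal calls. The response was larger in size with the Ppia guide for 299 and 358 of the 1376, which had been picked by their sgBgal values.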

How the data were processed

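RNA of 18 samples was extracted by the authors with RNeasy kits, and NEBNext Ultra II libraries were made and sequenced at Azenta Life Sciences. Of these samples 6 are used here. The authors deposited TPM values for 25239 genes, in 1 column for each sample with a sum of 1000000. The submitters' processing notes name bcl2fastq 2.17 and HISAT2 and both mm10 and GRCm39, and the study's methods name Kallisto or HISAT2. The counter, the annotation and any filter are not given in the sources used here. TPM keep no totals, so depth is unknown and no counting interval was computed.

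From these values log2(TPM + 1) was fitted with limma 3.58.1 (lmFit and eBayes, R 4.3.3), Restored minus Control, over genes with at least 1 TPM in 3 of 6 samples, with the cell line as a block. Genes were called at p below 0.05 after Benjamini-Hochberg adjustment if the log2 fold change was also 1 or more in size. A log2 fold change on this scale understates changes of low genes. The pairing comes from the cell line in the labels, and the deviations of the paired samples from their group means correlated at 0.753, 0.707 and 0.701 across genes. The labels give no separate cultures within a line.

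Lists were described by counts and medians with no set test. They, the genes named and the comparison itself were chosen with earlier results of these data known. Named genes were the 12 largest rises and falls that agreed in sign in 3 lines, up to 6 called members of each list with the largest change, up to 3 abundant members of lists with no call, Trp53, Rb1, Rbl2, Cdkn1a, Mdm2 and markers, and 8 genes of opposite sign between lines. Other genes named were chosen after their values were seen. Promoter windows came from RefSeq (GRCm38.p6) and matched 9465 of the 11953 genes by symbol or synonym. The fitting code was tested on simulated data. Tables were made with Python 3.11.15 and pandas 2.3.3. Some named genes are not reported here.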

Additional observations from a re-analysis of the deposited data

How the results depend on the processing

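Of 154 named genes, 132 were called and none of these turned direction under any alternative run. Without the replicate block, 591 genes were called up and 232 down, and 29 of the 132 named genes lost their call. With no filter on low values 245 were called down, and 29 named genes lost their call. Without a minimum fold change 3297 were called up and 1217 down. When each cell line was left out, the number of genes called up lay between 862 and 1086 and that of genes called down between 356 and 518. Rescaling by median-of-ratios, a pseudocount of 0.1, all 18 samples, a mean of at least 5 TPM and eBayes with trend and robust estimates kept both counts within 1.5 times. Rescaling ended 8 named calls. Counts of lists that moved by over 1.5 times included, with no filter on low values, Module 3 from 147 to 72, Module 2 from 26 to 16, the brakes from 8 to 5, death receptors from 5 to 3 and stress genes from 8 to 5, and without the block, Module 4 from 41 to 25, stress genes from 8 to 4 and autophagy genes from 5 to 3. Autophagy genes went from 5 to 3 and fatty acid genes from 3 to 5 under rescaling, the fatty acid genes also to 5 without 4716-11, and with a mean of at least 5 TPM histone genes went from 24 to 12, with 18 tested, and epithelial genes called up from 9 to 5. The interaction with either Ppia guide called 0 genes with and without the block. With 3 lines and 1 sample of each line and state, small changes of genes that differ between lines are the least certain, and an unknown depth limits values near 1 TPM.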
